A study of Mus musculus with 22 samples.

Results

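The Wnt signalling genes of the mouse bladder are described here as a set of ligands, receptors, agonists and antagonists, with a pair of response genes. Members were chosen by symbol, as every gene named Wnt, Fzd, Sfrp or Dkk with a number, together with Rspo1 to Rspo4, Lgr4, Lgr5, Lrp5, Lrp6, Wif1, Notum, Axin2 and Lef1. The array carried 49 such genes: 19 Wnt ligands, 12 receptors and co-receptors, 6 genes of the R-spondin system, 10 secreted antagonists and 2 response genes. A gene was kept where its probe was well above background on 2 or more of the 22 arrays, which left 42 members among 17405 genes tested. The 7 left out were Wnt2b, Wnt8a, Wnt8b, Rspo2, Rspo4, Dkk1 and Dkk4, each above background on 0 arrays, and the members nearest to the limit were Wnt9b on 3 arrays and Wnt3 and Wnt10b on 4 arrays each.

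The study read total RNA of 22 mouse bladder samples on Agilent arrays with 1 colour, and all mice were 8 months old. In 7 groups the mice had drunk BBN (N-butyl-N-(4-hydroxybutyl)nitrosamine), which causes bladder tumours, for 24 weeks. The labels call these samples bladder tumours. In 4 of the groups the genotype combined a mutant Trp53 allele with a tamoxifen-inducible Cre and a red fluorescent reporter: Krt5-CreERT2; LSL-RFP with Trp53R270H/+ (3 arrays, here called Krt5-Cre R270H) or with Trp53R172H/+ (4 arrays, Krt5-Cre R172H), and Upk2-CreERT2; LSL-RFP with Trp53R270H/+ (2 arrays, Upk2-Cre R270H) or with Trp53R172H/+ (3 arrays, Upk2-Cre R172H). The Krt5 promoter drives Cre in basal urothelial cells and the Upk2 promoter in luminal ones, so a whole-bladder sample mixes recombined cells with cells that kept the allele silent. A further BBN group, Trp53 het (3 arrays), is titled Trp53+/- while its genotype field reads Trp53R270H/+, and it received no tamoxifen. The controls within BBN were Krt5-CreERT2; LSL-RFP (Krt5-Cre, 2 arrays) and Upk2-CreERT2; LSL-RFP (Upk2-Cre, 2 arrays), both with tamoxifen and without a mutant Trp53 allele. The group without BBN (normal, 3 arrays) was wild type and received no tamoxifen. Its tissue label reads normal urothelium, although RNA came from whole bladders in all samples per the labels' extraction protocol.

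Wnt ligands are secreted, lipid-modified proteins that bind Frizzled (Fzd) receptors together with the co-receptors Lrp5 or Lrp6, which keeps beta-catenin from being degraded and lets it act with Lef1 and Tcf proteins on target genes. Other ligands, such as Wnt5a, act mostly through Ror2, Ryk and planar polarity proteins without beta-catenin. R-spondins bind Lgr receptors and keep Frizzled on the cell surface, while Sfrp and Wif1 proteins bind the ligands themselves, Dkk proteins bind Lrp5 and Lrp6, and Notum removes the lipid. In the bladder, signals between the urothelium and the stroma beneath it pass through this pathway during growth and repair.

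Upstream sequences are shown for 5 members on which the comparison with normal bladder turned: the ligands Wnt7a and Wnt16, which were higher in BBN bladders, and the ligand Wnt2, the antagonist Dkk2 and the transcription factor Lef1, which were lower. Each is the 250 bases before a RefSeq transcript start on GRCm38.p6, read 5′ to 3′ in the direction of the gene. They lie at chr6:91411354-91411603 (Wnt7a, minus strand), chr6:22287977-22288226 (Wnt16, plus strand), chr6:18030446-18030695 (Wnt2, minus strand), chr3:132085042-132085291 (Dkk2, plus strand) and chr3:131156044-131156293 (Lef1, plus strand, the most downstream of its 4 windows). Capitals mark TATAAA in Dkk2, 32 bases before the start, and, in Lef1, the only Tcf and Lef core motif found in these 5 windows, which is CTTTGTA read on the opposite strand and lies 147 bases before the start.
Wnt7a: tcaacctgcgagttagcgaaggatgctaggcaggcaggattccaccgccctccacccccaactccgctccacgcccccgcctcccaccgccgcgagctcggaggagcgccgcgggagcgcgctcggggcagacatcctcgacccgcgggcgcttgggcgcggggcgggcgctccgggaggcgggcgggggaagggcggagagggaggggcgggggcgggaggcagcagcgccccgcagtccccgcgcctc
Wnt16: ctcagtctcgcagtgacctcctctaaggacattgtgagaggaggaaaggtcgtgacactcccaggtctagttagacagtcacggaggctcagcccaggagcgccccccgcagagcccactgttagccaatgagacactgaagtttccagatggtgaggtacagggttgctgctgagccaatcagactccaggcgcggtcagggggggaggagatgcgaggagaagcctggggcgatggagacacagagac
Wnt2: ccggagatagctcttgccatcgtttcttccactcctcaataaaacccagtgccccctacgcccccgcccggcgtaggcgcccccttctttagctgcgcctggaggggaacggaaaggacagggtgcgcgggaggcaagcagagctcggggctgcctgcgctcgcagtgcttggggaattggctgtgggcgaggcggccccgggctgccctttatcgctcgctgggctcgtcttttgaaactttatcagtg
Dkk2: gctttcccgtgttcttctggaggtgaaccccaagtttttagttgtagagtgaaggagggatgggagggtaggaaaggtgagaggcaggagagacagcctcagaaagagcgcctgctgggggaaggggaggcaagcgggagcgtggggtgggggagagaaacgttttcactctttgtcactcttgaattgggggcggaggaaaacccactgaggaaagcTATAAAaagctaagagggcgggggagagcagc
Lef1: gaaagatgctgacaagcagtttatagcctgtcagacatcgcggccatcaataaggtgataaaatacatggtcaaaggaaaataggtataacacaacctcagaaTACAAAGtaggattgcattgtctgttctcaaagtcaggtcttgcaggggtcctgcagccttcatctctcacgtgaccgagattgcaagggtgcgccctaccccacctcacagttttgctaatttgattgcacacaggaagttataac
The Wnt7a window has 77.6% G and C, against 59.2% for Wnt16, 63.6% for Wnt2, 55.6% for Dkk2 and 44.8% for this window of Lef1. RefSeq windows were found for 27 of the 42 members, 33 windows in all, with a median G and C content of 66.8%, against 52.4% over the 32851 windows of all genes. The core motif CTTTGAA, its variant CTTTGTT, the variant CTTTGAT and the variant CTTTGTA were searched on both strands and stood in 4 of the 33 windows (12.1%), against 14.8% of all windows, and the other 3 were windows of Fzd7, Wnt5b and Wnt11. The other Lef1 windows held no such motif and had 50.8% to 66.4% G and C. TATAAA stood in 9.09% of the 33 windows, against 7.59% of all windows. These matches are letters in a window and were not tested as binding sites.

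Each array had 42.4% to 63.2% of its 59305 spots well above background, and no spot was saturated. Arrays lay on 4 slides read by 2 scanner models, and slide 4 held the 3 normal arrays and no other, so that slide and BBN cannot be told apart. The scanner of the normal arrays also read 8 BBN arrays, while the other scanner read every Krt5-Cre R270H and Upk2-Cre R270H array. Genotype, Cre and tamoxifen also differ between most BBN groups and normal and cannot be told apart from BBN, although Trp53 het had no tamoxifen either. The tissue label differs as well, bladder tumour against normal urothelium, so the tissue taken cannot be told apart from BBN. All 3 normal arrays are labelled female, while BBN arrays are labelled male or female, so that labelled sex is not balanced between them. On 11 arrays, 8 BBN and all 3 normal, the levels of Xist and Y-linked genes did not match the labelled sex. The labels do not say whether the samples of a group came from separate animals, so p-values measure the spread between these samples, which may be technical. Upk2-Cre 1 and 2 share a code in their descriptions, as do Trp53 het 1 and 2, and what it stands for is not stated, so the n of these groups may count a shared source more than once. Levels below are log2 signals minus that array's 75th percentile, so that each gene is compared with itself between arrays and not with other genes.

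In BBN bladders the ligands Wnt7a, Wnt16 and Wnt10a and the R-spondins Rspo1 and Rspo3 were higher than in normal bladders, while the ligands Wnt2 and Wnt5b, the antagonists Sfrp2, Dkk2 and Dkk3, the receptor Lgr5 and the transcription factor Lef1 were lower. Wnt10a was higher by 3.56 ± 0.46 (SE) on the log2 scale, Wnt7a, which was not above background on any normal array, was at least 26.5-fold higher, and Wnt2 differed by -4.18 ± 0.53. Wnt16 was also not above background on any normal array, and Rspo1 and Rspo3 were so on only 1. The Rspo1 call was lost in the authors' deposited normalized table. By limma, with p-values adjusted over all 17405 genes, 11 of the 42 members rose, where 23.7% of all genes did, and 11 fell, where 19% of all genes did (42.7% in either direction). The shares of members, 26.2% in each direction, lie near the background for the rises and above it for the falls, and were not tested against it. Members detected only where they are high had to differ, so the 21 members above background on all 22 arrays were also fitted alone with the 11105 genes of that kind: 5 of them rose (23.8%, against 22.7% of those genes) and 7 fell (33.3%, against 18.6%). The median difference of the 42 members was -0.12, and that of all genes was 0.13, a shift that quantile normalization brought to -0.01.

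Every BBN array lay above all 3 normal arrays for 5 members (Wnt7a, Wnt16, Wnt10a, Lrp5 and Lrp6), 11.9% of the 42, which was so for 13.6% of all genes. Of these, Wnt7a and Wnt16 passed the filter through BBN arrays alone. Wnt16 was above background on 12 of 19 BBN arrays, so its gap is partly one between dim signals. Every BBN array lay below all 3 for 9 members (Wnt2, Wnt5b, Fzd1, Fzd2, Lgr5, Sfrp2, Dkk2, Dkk3 and Lef1), 21.4%, which was so for 12% of all genes. In samples of whole tissue, fewer cells of a type and less RNA per cell cannot be told apart.

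**Figure D1:**
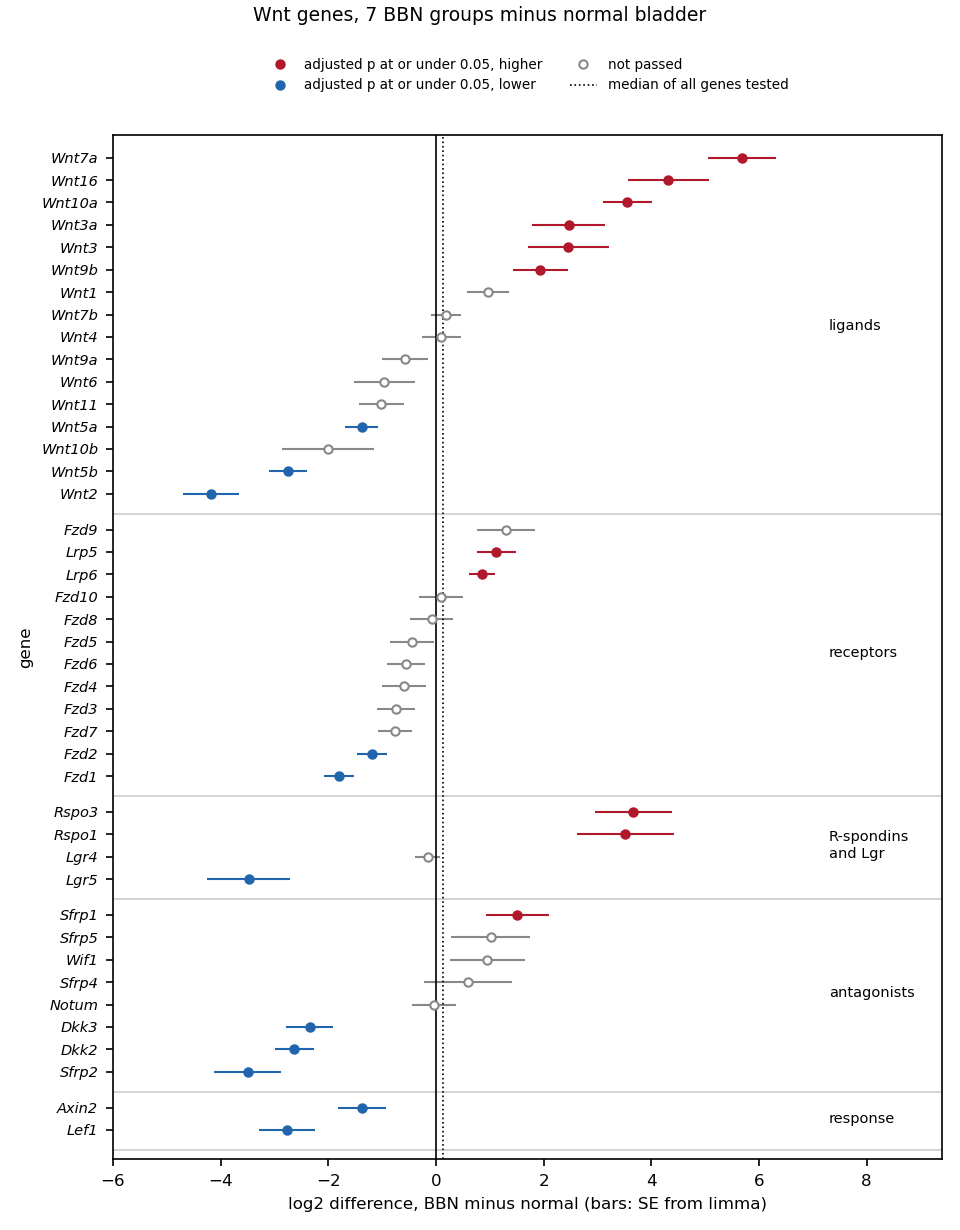
The plot gives the log2 difference of BBN minus normal bladder for the 42 members, ordered by role, with bars of 1 SE from limma; filled points passed an adjusted p of 0.05 (red higher, blue lower), open points did not, and the dotted line is the median of all genes, 0.13. Wnt7a, Wnt16, Wnt3 and Wnt9b were not above background on any normal array, so their points are fitted values against a level that is only a bound. Of the other members Rspo3 (3.67), Wnt10a (3.56) and Rspo1 (3.52) lie far to the right, and Wnt2 (-4.18) lies farthest to the left of the 42. Wnt10a was above background on all 3 normal arrays, but Rspo3 and Rspo1 on only 1, so their differences rest in part on dim normal signals.

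Among the 16 ligands that passed the filter, 6 rose, 3 fell and 7 did not pass the test. Wnt7a, a ligand expressed in epithelia, ranged over the 19 BBN arrays from -4.71 through a median of -2.07 to 0.38, and stood at -7.94, -7.70 and -7.42 on the normal arrays. It was well above background on 19 of 19 BBN arrays and 0 of 3 normal arrays, and the lowest BBN value, in Krt5-Cre 1, still lay above every normal one. Where no probe was above background in a group, that group has only a bound. The fold is then at least the ratio of the BBN mean to the lowest signal counted as above background on the normal arrays, or to the dim probe's own where that is higher. For Wnt7a the level in BBN bladders was at least 26.5-fold higher (limma adjusted p = 5.14e-06).

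Wnt16, a ligand known from skin and bone, ranged from -6.23 through -2.90 to 0.03 on the BBN arrays, against -7.70, -7.49 and -7.20 on the normal arrays. It was above background on 12 of 19 BBN arrays and 0 of 3 normal arrays, and in BBN bladders it was at least 11.9-fold higher (limma adjusted p = 0.000315). Its spread among the BBN arrays, an SD of 1.79, was the widest of the called ligands. Wnt10a, a ligand that signals through beta-catenin in epithelia and their appendages, ranged from 2.17 through 3.49 to 4.63 on the BBN arrays and stood at -0.42, -0.29 and 0.35 on the normal arrays. The groups did not overlap, and the level was 11.8-fold higher in BBN bladders (3.56 ± 0.46 on the log2 scale, limma adjusted p = 1.92e-05).

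The calls of 3 further ligands, Wnt3a, Wnt3 and Wnt9b, depended on the processing. Wnt3a, a classical activator of beta-catenin signalling, ranged from -5.49 through -2.33 to -0.99 on the BBN arrays, against -5.12, -4.85 and -4.27 on the normal arrays, a difference of 2.46 ± 0.68 (limma adjusted p = 0.00818), and was above background on 18 of 19 BBN arrays and 3 of 3 normal arrays. Of the BBN arrays, Krt5-Cre R172H 3 lay below all the normal ones, and the other 18 lay above them. Wnt3, which is closely related to Wnt3a, was above background on 4 of 19 BBN arrays and 0 of 3 normal arrays, ranged from -7.71 through -5.14 to -2.76 on the BBN arrays and stood at -7.71, -7.47 and -7.19 on the normal arrays, and in BBN bladders was at least 3.29-fold higher (limma adjusted p = 0.0146). Wnt9b, known as an epithelial signal in the developing kidney, was above background on 3 of 19 BBN arrays and 0 of 3 normal arrays, with -7.35, -5.45 and -2.78 as the lowest, median and highest BBN levels and -7.69, -7.44 and -7.21 on the normal arrays. Its level in BBN bladders was at least 2.30-fold higher (limma adjusted p = 0.00641). These calls were lost in the fit that took the scanner as a block, where the differences were 1.41 for Wnt3a (adjusted p = 0.0906), 1.13 for Wnt3 (adjusted p = 0.161) and 1.27 for Wnt9b (adjusted p = 0.0695). With normexp background correction Wnt3 (1.14, adjusted p = 0.0768) and Wnt9b (1.13, adjusted p = 0.0636) did not pass, and Wnt9b did not pass with quantile normalization (0.78, adjusted p = 0.210). Leaving out normal 3 also ended the calls of Wnt3a (2.28, adjusted p = 0.0504) and Wnt3 (2.33, 0.0680), and leaving out normal 1 that of Wnt3 (2.45, 0.0564).

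**Figure D2:**
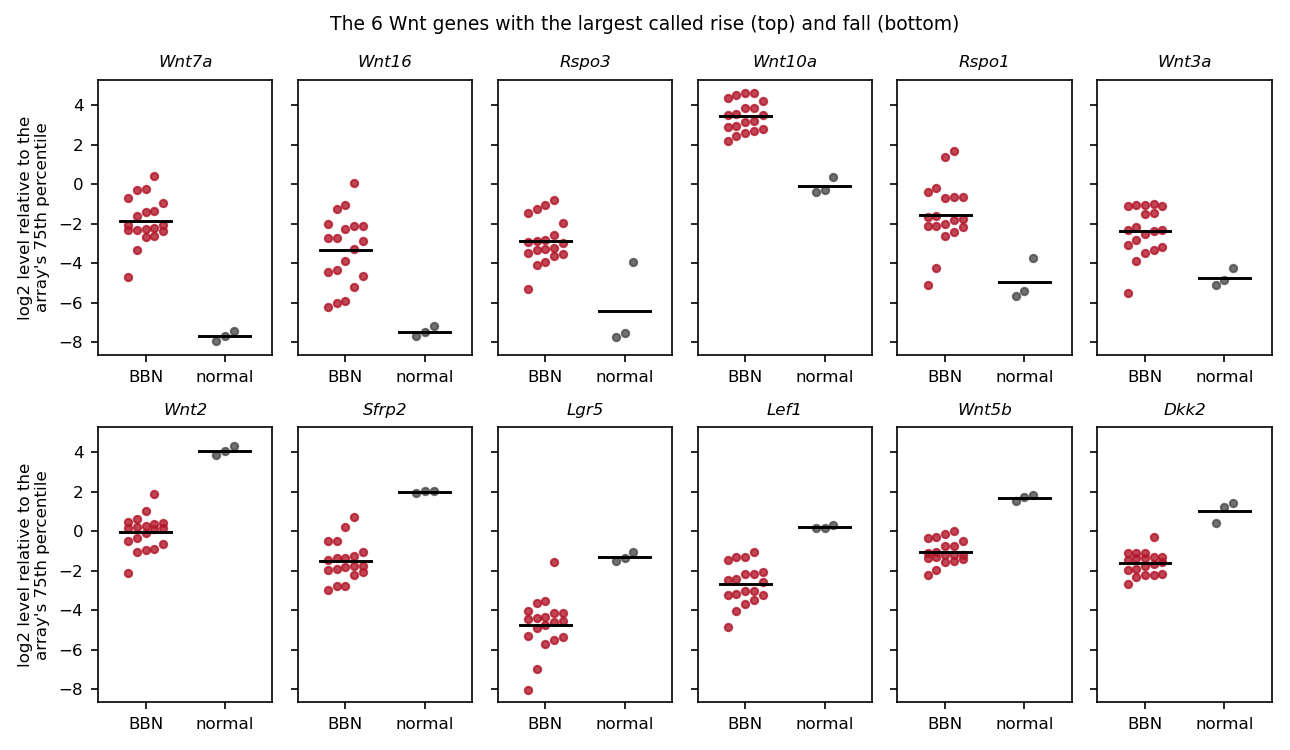
Each point is 1 array and gives the log2 level relative to the array's 75th percentile, with the 19 BBN arrays left of the 3 normal arrays and a line at the mean over arrays; the top row holds the 6 members with the largest called rise and the bottom row the 6 with the largest called fall. The BBN and normal points of Wnt7a, Wnt16 and Wnt10a and of the whole bottom row do not overlap, while single arrays of Rspo3, Rspo1 and Wnt3a do.

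The falls were those of Wnt2, Wnt5b and Wnt5a. Wnt2, a ligand made by mesenchyme in several organs, ranged from -2.12 through 0.17 to 1.87 on the BBN arrays and stood at 3.88, 4.07 and 4.29 on the normal arrays. It was above background on all 22 arrays, the groups did not overlap, and the level was 18.1-fold lower in BBN bladders (-4.18 ± 0.53, limma adjusted p = 1.54e-05). Wnt5b, which signals mostly without beta-catenin, ranged from -2.21 through -1.18 to 0.03 on the BBN arrays, against 1.54, 1.75 and 1.84 on the normal arrays, and was 6.70-fold lower (-2.74 ± 0.35, limma adjusted p = 2.01e-05). A second Wnt5b probe differed by -2.39. Wnt5a, the close relative of Wnt5b, ranged from 1.42 through 1.93 to 3.45 on the BBN arrays and stood at 3.40, 3.53 and 3.62 on the normal arrays, 2.60-fold lower (-1.38 ± 0.31, limma adjusted p = 0.00196), with -1.52 by its second probe. Of the BBN arrays 18 lay below all the normal ones, and Krt5-Cre R172H 1, at 3.45, lay among them.

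The other 7 ligands did not pass the test. Wnt4, a ligand of epithelia and stroma, ranged from 2.82 through 4.36 to 5.44 on the BBN arrays and stood at 3.94, 4.29 and 4.31 on the normal arrays, so that the BBN arrays spread to both sides of the normal ones. Its difference of 0.10 ± 0.36 (limma adjusted p = 0.836) turned to -0.13 with quantile normalization. Wnt7b, the urothelial ligand of the developing bladder, differed by 0.18 ± 0.27 (limma adjusted p = 0.609), and 7 BBN arrays lay above all the normal ones while 3 lay below. Wnt1, the founding member of the family, differed by 0.97 ± 0.39 (limma adjusted p = 0.0536), with 18 of 19 BBN arrays above all 3 normal ones. Wnt10b, a close relative of Wnt10a, was above background on 1 of 19 BBN arrays and on 3 of 3 normal arrays, with a difference of -2.01 ± 0.85 (limma adjusted p = 0.0668). The remaining differences were -1.02 ± 0.42 for Wnt11, -0.96 ± 0.57 for Wnt6 and -0.58 ± 0.43 for Wnt9a.

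All 12 Frizzled receptors and co-receptors passed the filter, of which 2 rose and 2 fell. Fzd1, a receptor for several ligands, ranged from 0.29 through 1.21 to 2.00 on the BBN arrays and stood at 2.78, 2.89 and 3.07 on the normal arrays. The groups did not overlap, and Fzd1 was 3.49-fold lower in BBN bladders (-1.80 ± 0.28, limma adjusted p = 9.57e-05). Its close relative Fzd2 was 2.29-fold lower (-1.19 ± 0.28, limma adjusted p = 0.00288), from -0.51 through 0.55 to 1.33 on the BBN arrays, against 1.61, 1.62 and 1.75 on the normal arrays. Fzd7, the next relative of both, differed by -0.76 ± 0.32 and did not pass (limma adjusted p = 0.0632).

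Both co-receptors rose. Lrp6 ranged from 1.90 through 2.54 to 3.57 on the BBN arrays and stood at 1.57, 1.65 and 1.81 on the normal arrays, a difference of 0.86 ± 0.24 (limma adjusted p = 0.00931), with 0.88 by a second probe. Lrp5 ranged from 0.41 through 0.89 to 2.37 on the BBN arrays and stood at -0.15, -0.07 and -0.06 on the normal arrays, a difference of 1.12 ± 0.36 (limma adjusted p = 0.0191). No BBN array overlapped the normal ones for either gene. Neither call held when the scanner was a block (Lrp6 0.68, adjusted p = 0.0681, and Lrp5 0.74, adjusted p = 0.154). On the arrays read by the scanner of the normal arrays alone, the differences were 0.66 ± 0.17 for Lrp6 and 1.02 ± 0.14 for Lrp5. There Krt5-Cre, Upk2-Cre and Trp53 het had a lone array each. The call of Lrp6 also ended without normal 1 (0.80, adjusted p = 0.0542), and that of Lrp5 without normal 1, without normal 2 or without normal 3 (1.09 to 1.14, adjusted p of 0.0640 to 0.0755). Lrp5 also did not pass with the sex label as a covariate (0.96, limma adjusted p = 0.0861) or with slide as a random block (1.14, limma adjusted p = 0.0628).

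Of the other Frizzled receptors, 7 did not pass besides Fzd7. Fzd9 differed by 1.30 ± 0.53 (limma adjusted p = 0.0583), Fzd3 by -0.74 ± 0.35, Fzd4 by -0.59 ± 0.41, Fzd6 by -0.56 ± 0.35 and Fzd5 by -0.44 ± 0.41. Fzd8 and Fzd10 differed by -0.08 ± 0.40 and 0.09 ± 0.41. A second Fzd5 probe differed by 0.68, so that the sign for Fzd5 depends on the probe.

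The R-spondins rose while their receptor Lgr5 fell. Rspo3, an R-spondin that strengthens Wnt signals by binding Lgr receptors, ranged from -5.31 through -2.97 to -0.83 on the BBN arrays, against -7.75, -7.52 and -3.93 on the normal arrays. It was above background on 14 of 19 BBN arrays and on 1 of 3 normal arrays, and 16 BBN arrays lay above that one, normal 2. The difference was 3.67 ± 0.71 (limma adjusted p = 0.000709). It was 4.90 without normal 2, where no normal array left was above background, so that both values rest on dim normal signals. Rspo1, which has the same action, ranged from -5.08 through -1.78 to 1.66 on the BBN arrays, against -5.67, -5.41 and -3.74 on the normal arrays, a difference of 3.52 ± 0.89 (limma adjusted p = 0.00503). It was above background on 17 BBN arrays and 1 normal array, and 17 BBN arrays lay above all the normal ones. In the authors' deposited normalized table, which leaves dim spots empty, the Rspo1 difference was 2.25 and did not pass (adjusted p = 0.179), and the Rspo3 difference was 1.28 (adjusted p = 0.0241).

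Lgr5, an R-spondin receptor that marks stem cells in several epithelia and is itself a Wnt target, ranged from -8.02 through -4.53 to -1.57 on the BBN arrays and stood at -1.49, -1.34 and -1.05 on the normal arrays. It was above background on 7 BBN arrays and on all 3 normal ones. Lgr5 was 11.1-fold lower in BBN bladders (-3.48 ± 0.77, limma adjusted p = 0.00199), and the highest BBN array, Krt5-Cre R270H 3, came close to the normal ones while the next, Upk2-Cre R172H 3, lay at -3.55. The size of this fall rests in part on dim BBN signals, and with normexp background correction it was -1.37. Lgr4, the R-spondin receptor of most epithelial cells, differed by -0.16 ± 0.24 and did not pass (limma adjusted p = 0.618), and its second, dimmer probe differed by 1.38.

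Of the 8 secreted antagonists that passed the filter, 3 fell and 1 rose. Sfrp2, a secreted Frizzled-related protein made by fibroblasts, ranged from -2.96 through -1.74 to 0.73 on the BBN arrays and stood at 1.95, 2.03 and 2.03 on the normal arrays, 11.3-fold lower in BBN bladders (-3.49 ± 0.62, limma adjusted p = 0.000358). Dkk2, which binds Lrp5 and Lrp6, ranged from -2.67 through -1.53 to -0.28 on the BBN arrays and stood at 0.41, 1.23 and 1.43 on the normal arrays, 6.21-fold lower (-2.63 ± 0.36, limma adjusted p = 3.76e-05). Dkk3, the divergent member of the Dkk family, ranged from 0.76 through 2.38 to 3.78 on the BBN arrays and stood at 4.53, 4.68 and 4.95 on the normal arrays, 5.09-fold lower (-2.35 ± 0.43, limma adjusted p = 0.00044), with -1.57 by a second probe. For none of these 3 genes did a BBN array reach the normal ones.

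Sfrp1, a relative of Sfrp2, went the other way, from -2.32 through -0.66 to 1.65 on the BBN arrays, against -2.15, -1.88 and -1.83 on the normal arrays. Its difference of 1.51 ± 0.58 passed narrowly (limma adjusted p = 0.0444), 18 BBN arrays lay above all the normal ones, and Trp53 het 2 lay below them. The call was lost in 22 of 38 alternative fits, among them each fit that left out a normal array (1.42 to 1.58, adjusted p of 0.105 to 0.145). It was also lost when a single BBN array was left out, which held for 11 of them (Upk2-Cre R172H 1 and 2, Upk2-Cre R270H 1 and 2, Trp53 het 1 and 3, Krt5-Cre R172H 4, Krt5-Cre R270H 3, Krt5-Cre 1 and Upk2-Cre 1 and 2), with differences of 1.37 to 1.54 and adjusted p of 0.0502 to 0.0585. The other antagonists did not pass: Sfrp5 differed by 1.02 ± 0.74, Wif1 by 0.95 ± 0.70, Sfrp4 by 0.60 ± 0.81 and Notum by -0.03 ± 0.41.

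Both response genes were lower in BBN bladders. Lef1, the transcription factor that partners beta-catenin and is induced by Wnt signals, ranged from -4.83 through -2.57 to -1.03 on the BBN arrays and stood at 0.14, 0.17 and 0.33 on the normal arrays, 6.77-fold lower (-2.76 ± 0.52, limma adjusted p = 0.000592). No BBN array reached the normal ones. Axin2, a feedback inhibitor that beta-catenin induces in most tissues, was above background on 9 of 19 BBN arrays and on 3 of 3 normal arrays. It ranged from -5.54 through -4.19 to -2.86 on the BBN arrays, against -3.16, -2.79 and -2.74 on the normal arrays, and 16 BBN arrays lay below all the normal ones. The Axin2 difference of -1.37 ± 0.45 (limma adjusted p = 0.0221) was -0.10 with normexp background correction (adjusted p = 0.804), -0.78 when the scanner was a block (adjusted p = 0.200) and -1.80 with quantile normalization (adjusted p = 0.0689). A second, dimmer Axin2 probe, above background on 1 BBN array and 0 normal arrays, differed by 0.69. Without normal 1, 2 or 3 the Axin2 difference was -1.30, -1.50 or -1.32 (adjusted p of 0.0896, 0.0515 and 0.0865). With Xist minus Y-linked genes as a covariate it was -1.16 (limma adjusted p = 0.0732). Without the BBN arrays that did not match their sex label it was -1.37 (limma adjusted p = 0.0733).

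**Figure D3:**
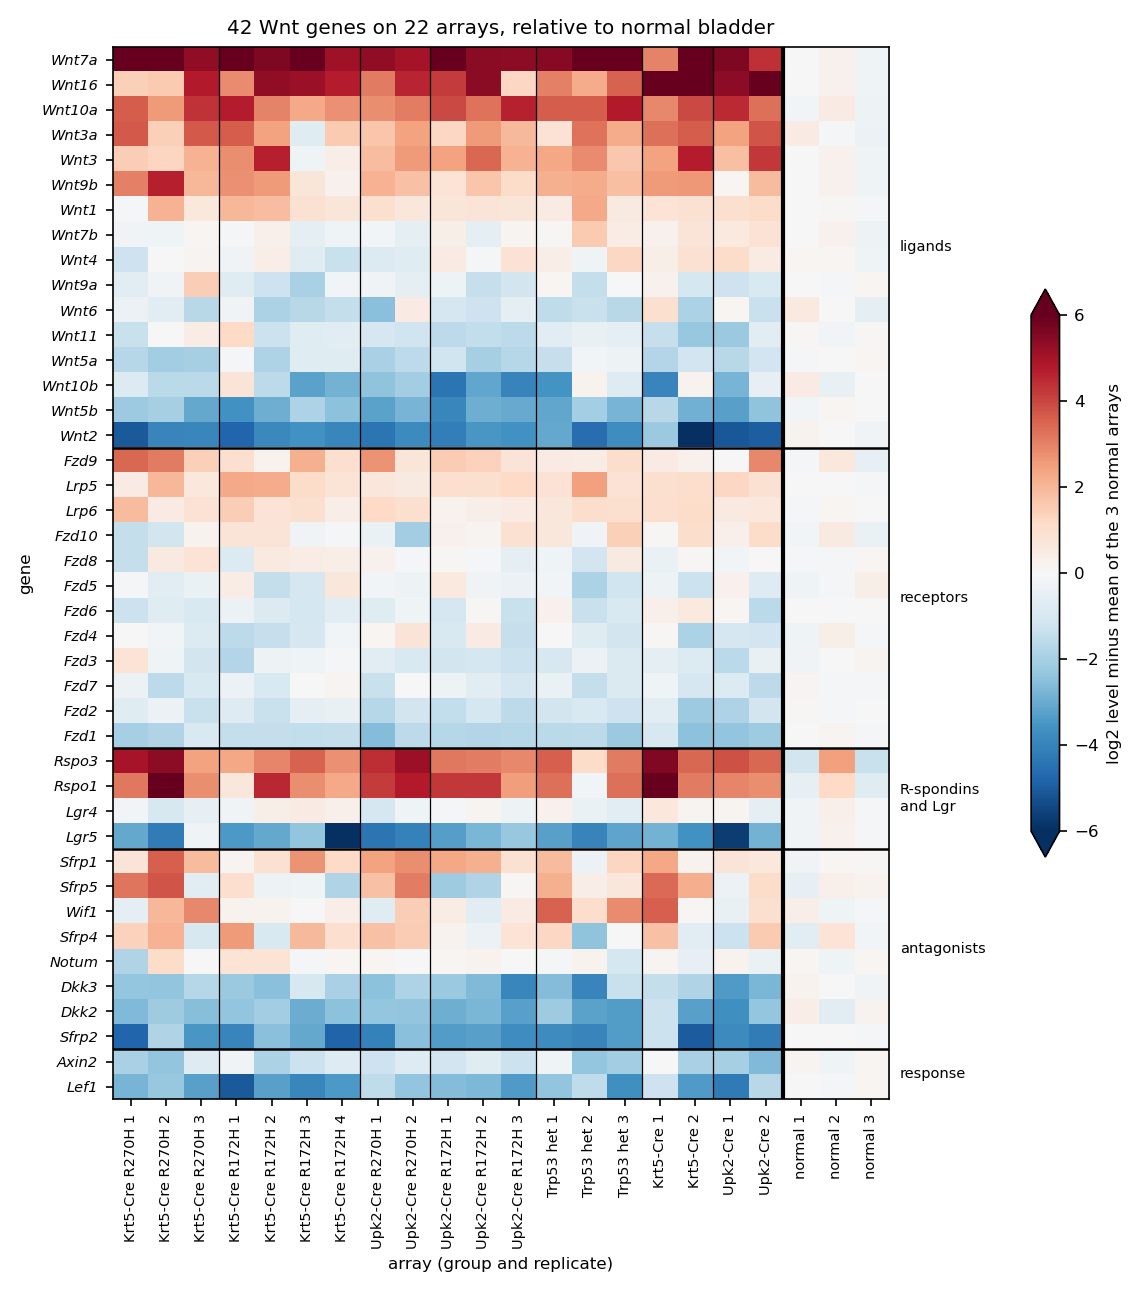
The heatmap shows each of the 42 members (rows, by role) on each of the 22 arrays (columns, BBN groups left of normal) as the log2 level minus the mean of the 3 normal arrays, with colours capped at 6 in both directions. Rows of Wnt7a, Wnt10a and the R-spondins are red and those of Wnt2, Wnt5b, Sfrp2, Dkk2 and Lef1 blue across the BBN groups, while Sfrp5 and Wif1 change colour between arrays.

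The other genes of the pathway were read from lists written with earlier results of these data known, and their counts stand beside the 23.7% of all genes that rose and the 19% that fell. Of 15 Wnt response genes, 6 rose and 4 fell, with a median difference of 0.62, against 0.13 over all genes. The members of smallest p did not move one way: Mmp7, a secreted protease, and Fosl1, an AP-1 transcription factor, were at least 252-fold and 28.5-fold higher in BBN bladders (limma adjusted p = 6.88e-05 and 8.05e-07), and Cd44, an adhesion receptor, was higher (2.38 ± 0.40), while Ascl2, a transcription factor of intestinal stem cells, was lower (-2.69 ± 0.51). Among 13 genes of Wnt secretion and co-receptors, 2 rose and 2 fell: Ptk7 (2.29 ± 0.49) and Znrf3 (0.87 ± 0.18), a ligase that removes Frizzled from the surface, were higher, and Ror2 (-1.33 ± 0.52), the receptor of Wnt5a, and Kremen1 (-0.60 ± 0.21), a partner of Dkk proteins, were lower.

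Of 11 planar polarity genes, 4 rose and 4 fell. Celsr1, an adhesion protein of the core polarity complex, averaged 3.08 on the BBN arrays and -2.36 on the normal arrays, a difference of 5.44 ± 0.37 (limma adjusted p = 6.00e-08). Celsr2 was higher by 1.66 ± 0.32, Celsr3 was at least 3.01-fold higher, and Prickle1, a cytoplasmic polarity protein, was lower (-1.46 ± 0.30). In the destruction complex and nuclear list, 2 of 21 genes rose and 2 fell: Dvl3, which relays the signal from Frizzled (3.74 ± 0.64), and the kinase Gsk3b (0.66 ± 0.17) were higher, and the transcription factors Tcf7l1 (-1.69 ± 0.47) and Tcf7l2 (-0.52 ± 0.20) were lower. Ctnnb1, which encodes beta-catenin, differed by -0.19 ± 0.23 and did not pass. Of 7 other secreted antagonists, 0 rose and 2 fell, Dkkl1 (-2.83 ± 0.59) and Apcdd1 (-1.75 ± 0.63). These lists had medians of 0.07 for secretion and co-receptors, -0.12 for planar polarity, 0.07 for the destruction complex and -0.31 for the other antagonists.

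Markers of cell types moved with BBN as well, and their part in the Wnt results was not tested. Of 8 fibroblast markers, 5 fell (Pdgfra -2.80 ± 0.64, Pi16 -3.40 ± 0.61) and 0 rose, and their mean level ranged from -0.05 to 3.73 on the BBN arrays and from 3.42 to 3.94 on the normal arrays. Of the 5 luminal urothelial markers, 4 fell, with mean levels of -1.69 to 3.13 on the BBN arrays and 6.47 to 6.94 on the normal arrays. Of the 5 basal markers, 4 rose (Krt14 by 7.97 ± 0.50), with mean levels of 5.05 to 7.02 on the BBN arrays and 3.13 to 3.54 on the normal arrays. All 6 smooth muscle markers rose, with mean levels of 2.30 to 6.90 on the BBN arrays and 1.43 to 2.72 on the normal arrays. These genes and the fibroblast markers were above background on the 3 normal arrays, although their tissue label names urothelium. On 2 BBN arrays, Krt5-Cre 1 (3.73) and Krt5-Cre R270H 2 (3.63), the fibroblast mean reached the normal range. The same arrays had the highest smooth muscle means (6.87 and 6.90). Krt5-Cre 1 also had the highest mean of the male accessory gland markers (-1.57), so more than its fibroblast content sets it apart. Krt5-Cre 1 also had the highest BBN level of Wnt2 (1.87), Sfrp2 (0.73) and Dkk2 (-0.28), and Krt5-Cre R270H 2 had 0.11, 0.22 and -1.12 for these genes. Krt5-Cre 1 was likewise the highest BBN array for Wnt5b, Wnt6, Lgr4, Wif1, Axin2, Lef1 and Rspo3, of which Rspo3 rose with BBN, and the lowest for Wnt7a.

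**Figure D4:**
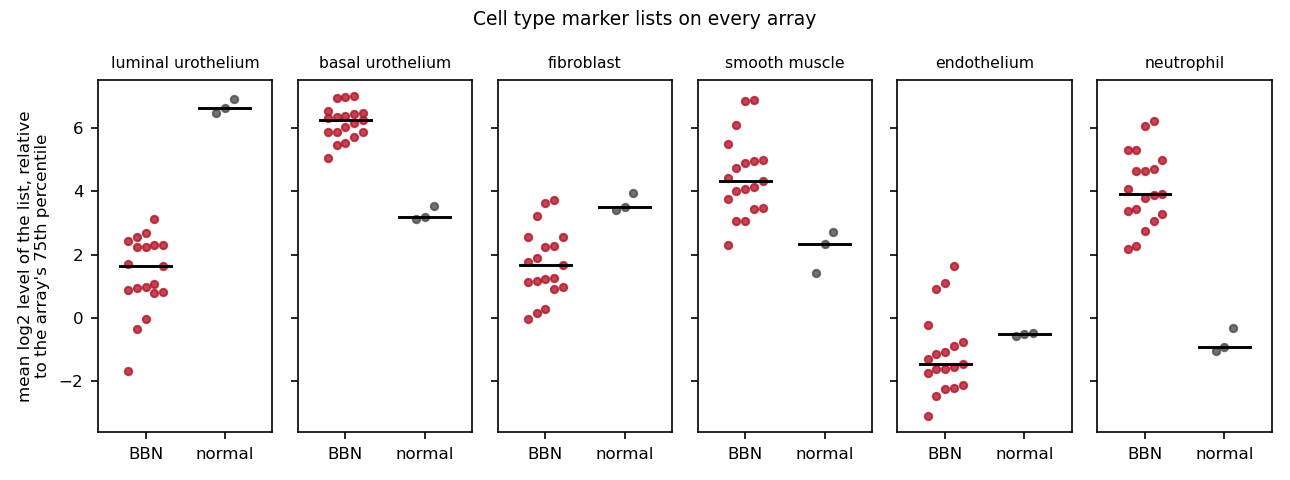
Each point is the mean log2 level of a marker list on 1 array, relative to the array's 75th percentile, with the 19 BBN arrays left of the 3 normal arrays and a line at the median. Luminal markers lie lower (-1.69 to 3.13) and basal markers higher (5.05 to 7.02) on every BBN array than on the normal arrays, whereas 2 BBN arrays reach the normal range of the fibroblast list.

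Of the other lists, 2 of 3 neutrophil markers rose (S100a8 by 6.72 ± 1.13 and S100a9 by 8.39 ± 0.98). The third, Csf3r, differed by -0.25 ± 0.26 and did not pass, so the mean of this list follows S100a8 and S100a9. Further, 2 of 4 T cell markers rose, 1 of 4 macrophage markers (Cd68) rose and 1 of 4 endothelial markers (Tek) fell. In the adipocyte and the Schwann and nerve lists 0 of 4 markers each passed, and 1 of 4 skeletal muscle markers (Ckm) and 1 of 2 male accessory gland markers (Svs5) rose.

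Within the BBN groups, no member passed the test in any of the comparisons between genotypes, where few genes did at all. By limma, 0 of the 42 members were called for Krt5-Cre mutants against Krt5-Cre (0.0115% of all genes called), for Upk2-Cre mutants against Upk2-Cre (0.00575%), for Krt5-Cre against Upk2-Cre mutants (0.00575%), or for the difference between the drivers, R270H against R172H, Trp53 het against the Cre controls and the F test over the 7 BBN groups (0% each). At an unadjusted p under 0.05 the members numbered 5, 2, 2, 1, 7, 3 and 5 in these comparisons, and the genes 836, 1094, 922, 578, 1708, 841 and 1095. The comparisons with Krt5-Cre or Upk2-Cre share those control arrays.

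Wnt16 had the smallest p of the members for the Krt5-Cre mutants and for Trp53 het. Among the Krt5-Cre mutants it averaged -4.89 ± 1.88 with R270H (SD, n = 3) and -2.95 ± 1.16 with R172H (n = 4), and among the Upk2-Cre mutants -3.62 ± 1.02 with R270H (n = 2) and -3.85 ± 2.16 with R172H (n = 3). Trp53 het averaged -4.52 ± 0.66 (n = 3), against -0.63 ± 0.93 in Krt5-Cre (n = 2) and -1.58 ± 0.75 in Upk2-Cre (n = 2). All 7 Krt5-Cre mutant arrays (-6.03 to -2.13) and all 3 Trp53 het arrays (-5.22 to -3.91) lay below the Krt5-Cre arrays (-1.29 and 0.03), while the Upk2-Cre mutants (-6.23 to -2.03) overlapped the Upk2-Cre arrays (-2.11 and -1.05). Wnt16 was above background on 1 of 3 Krt5-Cre R270H, 3 of 4 Krt5-Cre R172H and 1 of 3 Trp53 het arrays. On the Krt5-Cre and Upk2-Cre arrays it was above background throughout. These means and differences therefore rest in part on dim signals. The differences were -3.29 ± 0.97 for the Krt5-Cre mutants (limma adjusted p = 0.802) and -3.42 ± 0.93 for Trp53 het against both Cre controls (limma adjusted p = 0.622). With the slide as a block the first was -3.62 ± 1.08 (adjusted p = 0.205).

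Sfrp5, a secreted Frizzled-related protein, had the smallest p of the members between the mutant alleles. With the Krt5-Cre driver R270H averaged -1.75 ± 2.40 (SD, n = 3), against -4.22 ± 1.14 for R172H (n = 4), and with Upk2-Cre R270H averaged -1.47 ± 0.92 (n = 2), against -5.16 ± 1.17 for R172H (n = 3). The difference of 3.08 ± 0.70 did not pass (limma adjusted p = 0.199). All Upk2-Cre R270H arrays lay on slide 2 and all Upk2-Cre R172H arrays on slide 3, read by the other scanner. For that driver, allele, slide and scanner cannot be told apart. Krt5-Cre R270H 3, at -4.50, lay among the R172H arrays, and without it the difference was 3.76 (limma adjusted p = 0.0102). Leaving out the array that went against the difference had to widen it, so this value gives it no support. Other members at an unadjusted p under 0.05 in this comparison included Fzd10 (-1.39 ± 0.39), Rspo3 (1.55 ± 0.68) and Lgr4 (-0.65 ± 0.23), with limma adjusted p of 0.252, 0.462 and 0.349.

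Lef1, called for BBN, averaged -2.56 ± 0.49 (SD) with R270H and -3.70 ± 0.80 with R172H among the Krt5-Cre mutants, and -1.73 ± 0.59 with R270H and -2.69 ± 0.44 with R172H among the Upk2-Cre mutants. It averaged -2.31 ± 1.09 in Trp53 het, against -2.10 ± 1.51 in Krt5-Cre and -2.74 ± 1.80 in Upk2-Cre. For Lef1 the 2 Krt5-Cre arrays stood at -1.03 and -3.16. Wif1, an antagonist that binds Wnt ligands, stood at -1.44 and -4.94 on the same arrays. On the arrays of the scanner of the normal arrays alone, Krt5-Cre is that first array and the Krt5-Cre mutants are R172H arrays only. There Lef1 and Wif1 were lower in these mutants by -2.44 ± 0.39 and -3.39 ± 0.53, with a lone Krt5-Cre array taken to vary like the other groups. With the arrays of both scanners but without Krt5-Cre 1, the differences turned to 0.035 for Lef1 and 0.76 for Wif1.

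**Figure D5:**
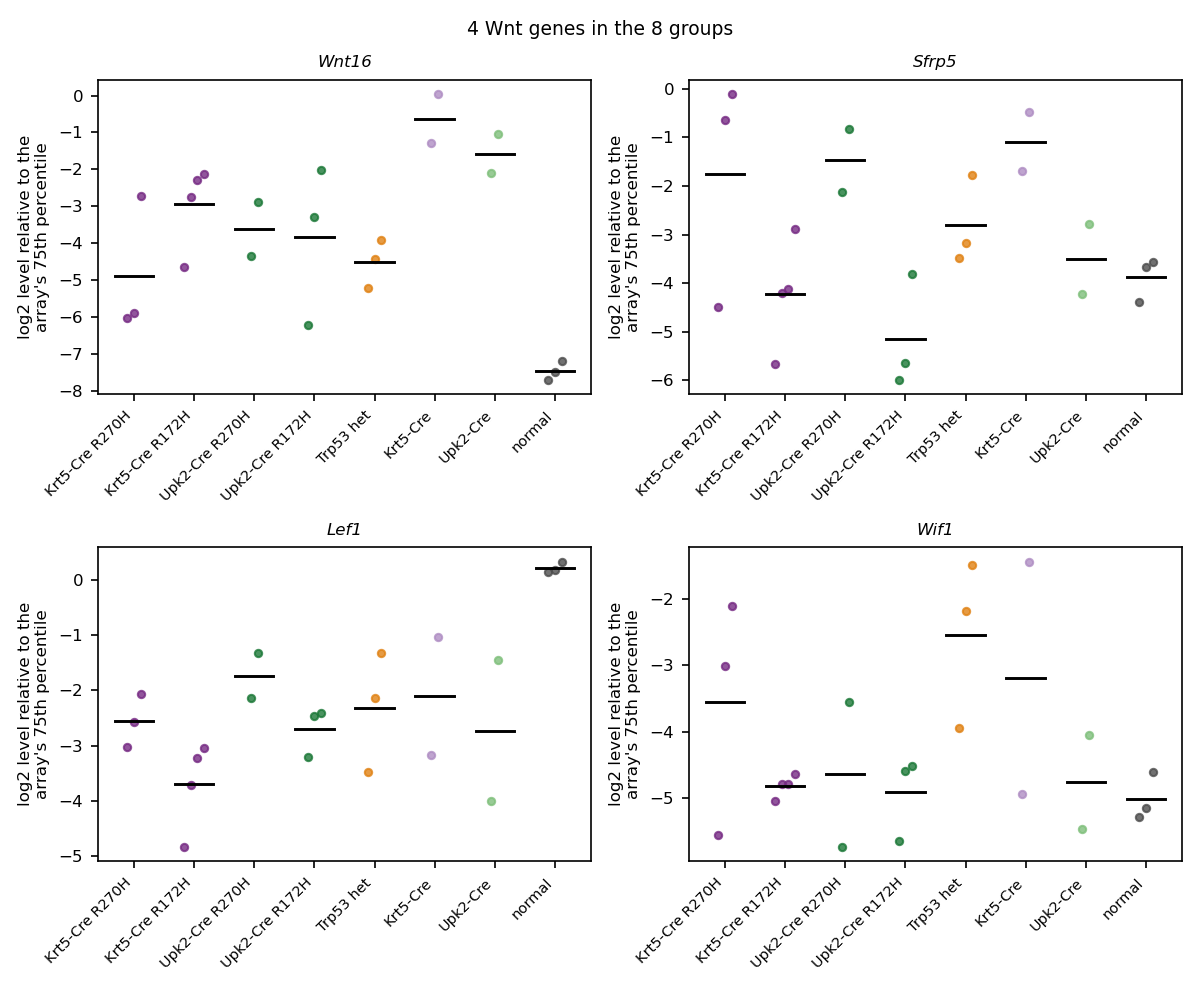
Points are single arrays and give the log2 level relative to the array's 75th percentile in the 8 groups, mutants and Trp53 het left of the Cre controls and normal, with a line at the group mean. No comparison among the BBN groups passed the test for these members. The Krt5-Cre mutant and Trp53 het arrays lie below both Krt5-Cre arrays for Wnt16 (-1.29 and 0.03), but some of them were not above background. Sfrp5 is split between R270H and R172H arrays except Krt5-Cre R270H 3 (-4.50). Among the Upk2-Cre mutants the alleles lay on separate slides and scanners. The 2 Krt5-Cre arrays are far apart for Lef1 and Wif1.

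Across the 19 BBN arrays, which share their slides and scaling, the genes whose levels followed Wnt7a most closely were Ctdnep1, Prmt5 and Atic (Pearson r = 0.86, 0.792 and 0.787). For Wnt2 they were Glb1l, Mfap5 and Loxl1 (r = 0.815, 0.813 and 0.801). These are the highest of all 17405 genes and are given as a description.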

How the data were processed

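Total RNA of 22 mouse bladder samples was read on 1-colour Agilent arrays. The deposited spot intensities, background-subtracted, come from Agilent's Feature Extraction software, version 11.0.1.1 per the file headers, while the submitters' processing notes name version 9.1 and limma. The authors' deposited normalized table holds log2 values that share one distribution across arrays, as read from the values. It leaves dim or flagged spots empty and served as an alternative.

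The processed intensity was taken as log2 minus the array's 75th percentile over unflagged non-control spots. Spots of a probe were averaged, and the brightest probe stood for a gene. Of 56605 probes, 32994 carried 1 symbol through RefSeq accessions (GRCm38.p6) and 23611 none or several. Genes well above background on 2 or more arrays were tested (17405), and 18 genes were removed for a flagged value. Tests used R 4.3.3 and limma 3.58.1. The model held a mean for each of the 8 groups on all 22 arrays, with groups weighted alike within a side and Benjamini-Hochberg adjustment within a comparison at 0.05. The fit was checked on simulated data. Array number limits the precision.

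Members and lists were chosen with earlier results of these data known. All members may be named. The rule gave array values for the called members with the largest difference (up to 16) and for Axin2, Lef1, Lgr5, Wnt4, Wnt5a and Rspo3, and named up to 4 genes of smallest p per other list. Array values of the other called members (Sfrp1, Fzd2, Lrp5 and Lrp6) were added after their values were seen. The alternatives were normexp (offset 50), quantile normalization, the deposited table, other filters, probes averaged, a fit of the compared arrays alone, slide, scanner, replicate number and sex as terms, arrays sharing a code averaged, array weights, only the normal arrays' scanner, and each array left out. Because slide 4 held normal arrays alone, slide entered BBN against normal as a random block. Python 3.11.15, pandas 2.3.3, numpy 2.4.6 and matplotlib 3.10.9 did the rest.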

Additional observations from a re-analysis of the deposited data

Results flagged for a closer look

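Of 42 tests of single arrays in the group of 4, Krt5-Cre R172H, 2 found an array that stands apart from the other 3 by Dixon's test, and chance gives about 1 in 20. Both concern Krt5-Cre R172H 1. The receptor Fzd3 stood at -3.85 on that array, against -2.43 to -2.25 on the other 3, and the receptor Fzd8 at -3.55, against -2.37 to -2.17. Both genes were tested among the members that did not pass in the comparison of BBN with normal bladders.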

How the results depend on the processing

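Of the 22 called members, 10 of the 11 that fell (all but Axin2) and 4 of the 11 that rose (Wnt7a, Wnt16, Wnt10a and Rspo3) kept their call in every alternative that gave a value. No member called for BBN against normal turned its sign in that comparison. With normexp the fitted differences were 2.56 for Wnt7a, 1.99 for Wnt16, 1.91 for Rspo3 and -1.37 for Lgr5. The count of members that rose, 11, was 7 in the deposited table, where Wnt7a, Wnt16, Wnt3 and Wnt9b have no value, 5 with the filter for all arrays, where fewer genes are tested, 6 with the scanner as a block and 13 on the normal arrays' scanner alone, and 7 to 12 with an array left out (7 without normal 1 or without normal 3). The count that fell, 11, was 7 with the filter for all arrays, 18 with array weights, 14 on the normal arrays' scanner alone, 11 with the scanner as a block and 10 to 13 with an array left out. The counts of 0 within BBN did not all hold on the normal arrays' scanner alone. There Krt5-Cre mutants against Krt5-Cre (Lef1 and Wif1) and the F test (Wif1) gave calls. That fit held a lone array each of Krt5-Cre, Upk2-Cre and Trp53 het, which also limits its counts for BBN against normal. It held no Krt5-Cre R270H or Upk2-Cre R270H array, so its F test covered fewer BBN groups. Among its BBN arrays, the lone arrays Trp53 het 1 (-1.50) and Krt5-Cre 1 (-1.44) had the highest Wif1 levels. The count for R270H against R172H was 1 in the deposited table (Rspo3) and 0 to 1 with an array left out (1 without Krt5-Cre R270H 3). The cause was not tested. The replicate numbers do not pair the samples: over 66 pairs of the same number the correlation of deviations ran from -0.48 to 0.56 (median 0.03, 20 over 0.1). With arrays sharing a code averaged, 13 rose and 12 fell. With a replicate block 11 rose (Wnt1 in, Sfrp1 out) and 11 fell, and 0 members were called in each other comparison. Members without a call changed sign as follows. Wnt4 was -0.050 with normexp, -0.13 with quantile normalization, the deposited table or the sex label, -0.17 with the scanner block and -0.010 with Xist as a covariate. Wnt6 was 0.17 with normexp, Wnt7b -0.16 with the scanner block and Sfrp4 -0.15 with the sex label. Fzd5 was 0.35 with normexp, 0.12 as the mean over probes and 0.064 with the scanner block. Fzd8 was 0.32 with normexp, 0.0077 in the deposited table and 0.10 with array weights. Fzd10 was -0.30 with the scanner block. Lgr4 was 0.61 as the mean over probes, 0.16 with the scanner block and 0.26 on the normal arrays' scanner. Notum was 0.085 on the normal arrays' scanner and 0.19 with Xist. With an array left out, Wnt4 ran from -0.021 (without normal 3) to 0.17, Fzd8 from -0.14 to 0.023 (without Krt5-Cre R270H 1), Fzd10 from -0.10 (without normal 3) to 0.37 and Notum from -0.16 to 0.078. For Krt5-Cre mutants against Krt5-Cre, Lef1 ran from -2.10 to 0.035 and Wif1 from -2.74 to 0.76, the higher values without Krt5-Cre 1 and the lower without Krt5-Cre 2. For Upk2-Cre mutants against Upk2-Cre, Axin2 was -0.17 with normexp.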
